A study of Homo sapiens with 10 samples.

Results

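The hepatocyte transcription factors HNF4A, FOXA1, FOXA2, FOXA3, CEBPA, NR1H4, NR5A2 and ONECUT1 were read in 10 RNA-Seq libraries of 3 human liver cancer cell lines. The 8 genes were listed by name and matched by symbol to the Ensembl identifiers of the deposited tables, and all 8 were found among 58302 genes. Of the SK-Hep1 libraries, 1 was a mock control and the other 4 came from cells overexpressing PSPC1, PSPC1 with PTK6 (PSPC1/PTK6), the mutant PSPC1-Y523F, or that mutant with PTK6 (PSPC1-Y523F/PTK6). The Mahlavu libraries came from mock control cells, from cells overexpressing the C-terminal fragment PSPC1-CT131, and from cells labelled with a mutation of its nuclear localization sequence (Mut-NLS-CT131). The Huh-7 libraries came from untreated cells and from cells given hepatocyte growth factor (HGF) at 10 ng/ml for 48 h. The labels attach this treatment text to both Huh-7 samples, and the groups follow the names of the samples' sources. PSPC1 is an RNA-binding protein of nuclear paraspeckles and PTK6 is a nonreceptor tyrosine kinase. The constructs were brought in on plasmids, and the sources used here do not say whether RNA was taken from pools or from selected clones. Each condition had 1 library, so no difference below has a replicate check, and every interval covers counting error only. The reads carry no molecular identifiers, so the intervals also do not allow for copies of the same molecule.

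In liver development and in adult hepatocytes these factors act as a mutually reinforcing network. The forkhead factors FOXA1, FOXA2 and FOXA3 open closed chromatin at liver enhancers. HNF4A, CEBPA and ONECUT1 (HNF6) then drive the genes of plasma proteins and metabolism. NR1H4 (the bile acid receptor FXR) and NR5A2 (LRH-1) are nuclear receptors that control bile acid and cholesterol genes. Loss of this network is a known feature of dedifferentiated liver tumours.

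Because members of the network bind each other's promoters, the promoter sequences of the 3 nuclear receptors are shown. They are the 250 bases before a transcription start in RefSeq (GRCh38.p14, plus strand). HNF4A has 2 start regions, of which the first lies before the gene and the second within an intron of the longer transcripts. The windows shown for NR1H4 and NR5A2 also lie in introns of their longest transcripts, and none of these 4 windows overlaps an annotated exon. Capitals mark matches, on either strand, to the FOXA core TGTTTAC, the ONECUT core ATCAAT, the nuclear receptor half-site AGGTCA or the C/EBP site TTGCGCAA. These motifs were written with the windows at hand.
HNF4A first start, chr20:44355449-44355698: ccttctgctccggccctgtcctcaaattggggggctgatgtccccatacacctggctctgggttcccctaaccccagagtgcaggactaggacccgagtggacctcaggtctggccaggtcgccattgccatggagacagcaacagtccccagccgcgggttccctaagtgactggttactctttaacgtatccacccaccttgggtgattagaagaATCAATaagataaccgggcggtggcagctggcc
HNF4A second start, chr20:44400989-44401238: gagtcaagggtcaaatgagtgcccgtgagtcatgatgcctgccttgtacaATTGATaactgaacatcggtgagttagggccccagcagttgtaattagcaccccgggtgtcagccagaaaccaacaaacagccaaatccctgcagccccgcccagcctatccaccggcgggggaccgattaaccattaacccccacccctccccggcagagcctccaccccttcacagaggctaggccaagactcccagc
NR1H4, chr12:100503110-100503359: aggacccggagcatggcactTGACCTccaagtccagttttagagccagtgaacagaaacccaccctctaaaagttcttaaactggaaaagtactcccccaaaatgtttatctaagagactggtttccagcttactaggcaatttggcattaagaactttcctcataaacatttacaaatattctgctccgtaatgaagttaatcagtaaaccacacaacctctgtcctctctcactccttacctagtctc
NR5A2 second start, chr1:200042341-200042590: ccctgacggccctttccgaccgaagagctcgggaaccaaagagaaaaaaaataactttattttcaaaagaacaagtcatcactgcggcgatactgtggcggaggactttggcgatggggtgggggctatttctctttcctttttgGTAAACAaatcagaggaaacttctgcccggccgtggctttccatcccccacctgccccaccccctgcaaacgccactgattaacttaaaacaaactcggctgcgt

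The first HNF4A window held 1 ONECUT core, beginning 33 bases before the start. The second held 1 ONECUT core, 200 bases before the start. The NR1H4 window held a nuclear receptor half-site, 230 bases before the start. The NR5A2 window held a FOXA core, 105 bases before the start. Over all 35116 promoter windows of this length in the table, 2.98% held the FOXA core, 5.58% the ONECUT core, 12.1% the nuclear receptor half-site and 0.131% the C/EBP site. A match is a run of letters and not a measured binding site. In all, 7 of the 8 genes had an entry, with 9 windows, and FOXA2 had none. The windows of FOXA1, CEBPA and ONECUT1 held none of these letters. The FOXA3 window and the first NR5A2 window each held 1 nuclear receptor half-site.

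The libraries held between 15245935 and 24278662 reads on genes, and the Huh-7 totals were recovered from FPKM (reads scaled for gene length and for the total reads on genes of the library). PSPC1 had 0 reads in SK-Hep1 mock and 71 to 2539 reads in the other 4 SK-Hep1 libraries. PSPC1 reads were not raised in the libraries labelled PSPC1-CT131 and Mut-NLS-CT131, with 30.8 and 22.5 FPKM against 47.3 in Mahlavu mock, so these 2 are named by their labels only. PTK6 had 16.7 FPKM in PSPC1/PTK6 against 5.69 in PSPC1, and 10.5 in PSPC1-Y523F/PTK6 against 4.09 in PSPC1-Y523F. The labels call all 3 lines hepatocellular carcinoma lines. Of 6 hepatocyte markers (ALB, APOA1, TTR, SERPINA1, APOB and AFP), 6 reached 1 FPKM in both Huh-7 libraries and 1, SERPINA1, did so in each SK-Hep1 and Mahlavu library, where ALB and TTR had 0 reads throughout. Their summed level was 25185 to 25491 FPKM in Huh-7, 16.3 to 42.3 in SK-Hep1 and 8.11 to 10.3 in Mahlavu. Of 8 endothelial markers, 1, EGFL7, reached 1 FPKM in SK-Hep1 and in Mahlavu, with summed levels of 65.6 to 171 and 17.4 to 30.6 FPKM, and 2 to 3 did so in Huh-7 with sums of 49.1 to 54.7. Biliary markers summed to 365 to 1272 FPKM in SK-Hep1, 4.10 to 12.3 in Mahlavu and 315 to 353 in Huh-7, with 3, 2 to 3 and 4 of 5 at 1 FPKM or more. Stellate markers summed to 24.6 to 58.1, 40.9 to 58.1 and 164 to 178 FPKM, with 3 to 4, 3 to 5 and 3 of 6 at 1 FPKM or more. Blood markers summed to 6.07 to 18.3, 7.18 to 10.3 and 4.82 to 5.44 FPKM, with 1 of 3 at 1 FPKM or more in every library.

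All 8 factors were expressed in Huh-7, and none was above 2.36 FPKM in any SK-Hep1 or Mahlavu library. The number of factors with at least 1 FPKM was 8 in both Huh-7 libraries and 0 in the 3 Mahlavu libraries. In SK-Hep1 it was 2 in mock, 0 with PSPC1, 2 with PSPC1/PTK6, and 1 each with PSPC1-Y523F and PSPC1-Y523F/PTK6. The summed level of the 8 factors was 482 and 481 FPKM in Huh-7 without and with HGF, 2.28 to 5.51 FPKM in SK-Hep1 and 0.191 to 0.839 FPKM in Mahlavu. For comparison, 20.2% of all genes had at least 1 FPKM in SK-Hep1 mock, 23.1% in Mahlavu mock and 24.6% in untreated Huh-7. In such bulk RNA, fewer cells that express a gene and less RNA in every cell cannot be told apart.

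Among the nuclear receptors, HNF4A (ENSG00000101076, GRCh38 chromosome 20, 44355700 to 44434596, plus strand) was the most abundant of the 8 factors in untreated Huh-7. It is a receptor-type activator that many hepatocyte genes depend on. It had 114 FPKM in untreated Huh-7 (95% interval 111 to 117, 4768 reads) and 109 FPKM with HGF (105 to 112, 4229 reads). In SK-Hep1 it had 3 reads in mock, 1 with PSPC1, 5 with PSPC1/PTK6 and 0 with either Y523F construct, and it had 1 read in each Mahlavu library. These 8 libraries did not overlap with Huh-7, and their highest level was 0.0820 FPKM. How many of all genes separate the lines in this way was not counted. The gene counts do not tell its 2 start regions apart. The antisense neighbour HNF4A-AS1 had 0 reads in the SK-Hep1 and Mahlavu libraries and 2.42 and 1.85 FPKM in Huh-7. Reads of the 2 strands cannot be separated with a library kit that is not described as strand-specific.

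NR1H4 (ENSG00000012504, chromosome 12, 100473708 to 100564413, plus strand), the bile acid receptor, had 0 reads in all 8 SK-Hep1 and Mahlavu libraries. The level of 3 reads was 0.0886 to 0.113 FPKM in these libraries. The upper interval bound of a count of 0 was 0.109 to 0.139 FPKM. In Huh-7 it had 47.8 FPKM without HGF (45.0 to 50.7, 1091 reads) and 50.9 FPKM with it (47.9 to 54.0, 1081 reads). The Huh-7 libraries and the other 8 did not overlap, and the share of all genes for which this holds was not counted.

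NR5A2 (ENSG00000116833, chromosome 1, 200027602 to 200177424, plus strand), a receptor that acts on bile acid synthesis genes, had 35.5 FPKM in untreated (33.8 to 37.3, 1617 reads) and 33.3 FPKM in HGF-treated Huh-7 (31.6 to 35.1, 1414 reads). In SK-Hep1 its reads were 5 in mock, 1 with PSPC1, 46 with PSPC1/PTK6, 1 with PSPC1-Y523F and 9 with PSPC1-Y523F/PTK6, or 0.0829, 0.0178, 0.692, 0.0170 and 0.133 FPKM. In Mahlavu it had 14 reads in mock, 4 in the library labelled PSPC1-CT131 and 38 in that labelled Mut-NLS-CT131, or 0.222, 0.0726 and 0.715 FPKM. It was the only one of the 8 factors with more than 5 reads in any Mahlavu library.

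The 3 forkhead genes differed outside Huh-7. FOXA1 (ENSG00000129514, chromosome 14, 37589984 to 37596059, minus strand) had 37 reads in SK-Hep1 mock, 17 with PSPC1, 45 with PSPC1/PTK6, 22 with PSPC1-Y523F and 15 with PSPC1-Y523F/PTK6, or 1.34, 0.661, 1.48, 0.821 and 0.486 FPKM. It had 2, 1 and 0 reads in the Mahlavu libraries. In Huh-7 it had 51.2 FPKM (48.2 to 54.4, 1066 reads) and, with HGF, 51.3 FPKM (48.2 to 54.6, 994 reads). It was low but counted in every SK-Hep1 library and near 0 in Mahlavu.

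FOXA2 (ENSG00000125798, chromosome 20, 22581005 to 22585455, minus strand), which also acts in gut endoderm and pancreas, had 1 read in the PSPC1-Y523F library and 0 in the other 7 SK-Hep1 and Mahlavu libraries. It had 46.5 FPKM in untreated Huh-7 (44.4 to 48.7, 1837 reads) and 49.8 FPKM with HGF (47.5 to 52.1, 1830 reads). Its neighbouring long noncoding RNA LINC00261 was at 0.267 and 0.128 FPKM in Huh-7 and at 0.0815 FPKM or lower elsewhere.

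FOXA3 (ENSG00000170608, chromosome 19, 45863989 to 45873797, plus strand), a forkhead factor of adult liver, had 106 FPKM in untreated Huh-7 (102 to 111, 2198 reads) and 109 FPKM with HGF (105 to 114, 2109 reads). In SK-Hep1 it had 2 reads in mock, 8 with PSPC1, 26 with PSPC1/PTK6, 4 with PSPC1-Y523F and 35 with PSPC1-Y523F/PTK6, or 0.0730, 0.313, 0.861, 0.150 and 1.14 FPKM. Both libraries that received PTK6 stood above the other 3. The Mahlavu libraries had 4, 1 and 2 reads.

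CEBPA (ENSG00000245848, chromosome 19, 33299934 to 33302564, minus strand), a leucine zipper factor that also restrains proliferation, had 44.2 FPKM in untreated Huh-7 (42.3 to 46.3, 1906 reads) and 41.9 FPKM with HGF (40.0 to 44.0, 1682 reads). Its SK-Hep1 reads were 38 in mock, 24 with PSPC1, 43 with PSPC1/PTK6, 38 with PSPC1-Y523F and 15 with PSPC1-Y523F/PTK6, or 0.666, 0.451, 0.685, 0.685 and 0.235 FPKM. The Mahlavu libraries had 5, 1 and 1 reads. Its divergent neighbour CEBPA-DT had 9.34 and 11.7 FPKM in Huh-7 and at most 0.553 FPKM elsewhere.

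ONECUT1 (ENSG00000169856, chromosome 15, 52756989 to 52791078, minus strand), a factor of liver and bile duct development, was the most abundant of the 8 in SK-Hep1 mock. Its reads were 68 in mock, 22 with PSPC1, 54 with PSPC1/PTK6, 46 with PSPC1-Y523F and 26 with PSPC1-Y523F/PTK6, or 2.36, 0.820, 1.70, 1.64 and 0.807 FPKM. All 3 Mahlavu libraries had 0 reads, where the level of 3 reads was 0.0997 to 0.118 FPKM. The upper interval bound of a count of 0 was 0.123 to 0.146 FPKM. In Huh-7 it had 36.9 FPKM (34.4 to 39.6, 802 reads) and, with HGF, 36.0 FPKM (33.5 to 38.7, 729 reads).

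In untreated Huh-7 the order of the levels per length was HNF4A, FOXA3, FOXA1, NR1H4, FOXA2, CEBPA, ONECUT1 and NR5A2. HNF4A and FOXA3 met at the edge of their intervals, those of neighbours from FOXA1 to CEBPA overlapped, and those of ONECUT1 and NR5A2 overlapped. FOXA3 and FOXA1 did not overlap, nor did CEBPA and ONECUT1. The order depended on the gene length, since the length behind the deposited FPKM of 7 of the factors was the mean length of their transcripts. For NR1H4 the recovered length was 1394 bases and the mean 1441. With the longest transcript instead, FOXA3 led with 67.5 FPKM, followed by FOXA2 with 46.3, HNF4A with 45.2 and CEBPA with 44.2. ONECUT1, NR1H4, FOXA1 and NR5A2 then had 23.4, 23.1, 22.7 and 19.4 FPKM. HNF4A was most affected, with a length of 2555 bases behind its FPKM and a longest transcript of 6445 bases.

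**Figure D1:**
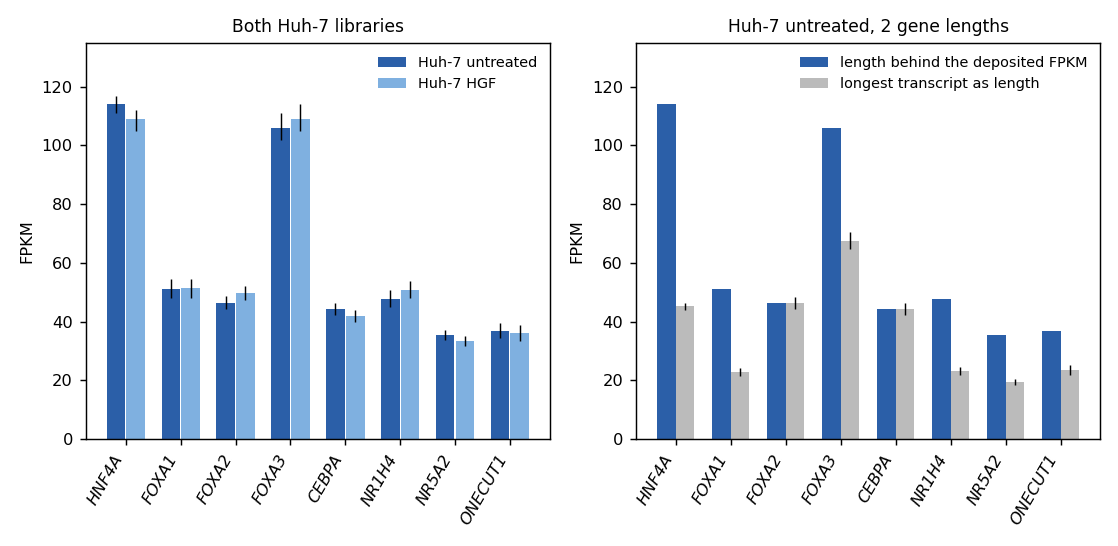
Left, FPKM of the 8 factors in both Huh-7 libraries with 95% Poisson intervals. Right, FPKM in untreated Huh-7 with the length behind the deposited values (without intervals) and with the longest transcript as length (with 95% Poisson intervals), where HNF4A has 114 and 45.2 FPKM and CEBPA 44.2 with either length.

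HGF acts through the receptor MET, expressed at 50.0 FPKM in untreated cells and 51.8 in treated ones. After quantile normalization of FPKM over both libraries, the log2 fold changes of FPKM + 1 with HGF lay between −0.08 for NR5A2 and 0.11 for FOXA2. None of the 8 factors, all of which passed the filter of a mean of 1 FPKM, changed by 2-fold, where 0.820% of 14262 genes did. By reads scaled to the library totals, HNF4A was lower with HGF with a ratio of 0.953 (95% interval 0.914 to 0.993), and FOXA2 was higher with a ratio of 1.07 (1.002 to 1.14). These were 2 of 8 factors with an interval that left out 1, against 36.7% of the genes with at least 500 reads in the pair. For the other 6 the ratio lay between 0.939 for NR5A2 and 1.06 for NR1H4, and the bounds of these intervals ran from 0.874 to 1.16. Larger changes lie outside what counting error allows, and differences between cultures cannot be seen with 1 library each.

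Untreated Huh-7 was then set against the mock libraries of the other lines. All 10 libraries were quantile normalized together for the log2 differences, and line, round of deposit and library cannot be told apart. The 8 factors passed the filter because of their level in Huh-7, so their number past 2-fold is given without weight. It was 8 in both comparisons, where 24.9% of 13658 genes were at least 2-fold higher than in SK-Hep1 mock and 22.6% of 13594 genes than in Mahlavu mock. Against SK-Hep1 mock, the ratio of scaled reads was smallest for ONECUT1, 15.6 (12.2 to 20.3), followed by FOXA1 with 38.1 (27.5 to 54.5) and CEBPA with 66.4 (48.2 to 94.1). NR5A2 was 428 times as high (183 to 1320), FOXA3 1455 times (402 to 12021) and HNF4A 2104 times (720 to 10206). With a floor of 3 reads for the library at 0, FOXA2 was 811-fold higher and NR1H4 481-fold higher. The lower bounds of their intervals were 659 and 391.

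Against Mahlavu mock the smallest ratio was that of NR5A2, 160 (95.1 to 293). The ratios of CEBPA, FOXA1, FOXA3 and HNF4A were 528 (226 to 1628), 738 (204 to 6105), 761 (297 to 2797) and 6606 (1185 to 260969). With the same floor, FOXA2 was 848-fold higher, NR1H4 504-fold and ONECUT1 370-fold, with lower 95% bounds of 689, 409 and 301. Between the 2 mock libraries, FOXA1 and ONECUT1 passed the filter, through their level in SK-Hep1, so their number past 2-fold is again given without weight. Both were at least 2-fold lower in Mahlavu, where 16.1% of 13231 genes were, with log2 differences of −1.55 and −2.10. The 2 became 1 with FPKM as deposited or TMM scaling, and 0 with 5 added in place of 1 or with a mean of at least 5 FPKM. By reads, FOXA1 in Mahlavu was at 0.0517 of its level in SK-Hep1 (0.00603 to 0.200) and CEBPA at 0.126 (0.0386 to 0.320). ONECUT1 was 23.7-fold lower with the floor of 3 reads, with a lower 95% bound of 18.8-fold. As deposited, the median log2 difference of all genes was 0.38 in the direction of Mahlavu, opposite to that of these 3 genes. NR5A2 had a ratio of 2.68 (0.911 to 9.49).

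The SK-Hep1 overexpression libraries were each set against SK-Hep1 mock, which they share, so their differences are not independent of each other. After quantile normalization over the SK-Hep1 and Mahlavu libraries, FOXA1 and ONECUT1 passed the filter of a mean of 1 FPKM in each of the 4 comparisons. Neither was past 2-fold, where 5.57% of 12410 genes were with PSPC1, 8.41% of 12436 with PSPC1/PTK6, 5.29% of 12382 with PSPC1-Y523F and 5.03% of 12412 with PSPC1-Y523F/PTK6. Their log2 fold changes of FPKM + 1, a scale that understates changes of low genes, were −0.57 and −0.93 with PSPC1 alone. With PSPC1/PTK6 they were −0.25 and −0.63, with the Y523F mutant −0.37 and −0.29, and with PSPC1-Y523F/PTK6 −0.66 and −0.85. The reads themselves were therefore compared for factors with at least 20 reads in a pair of libraries.

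With PSPC1, FOXA1 was at 0.493 of its mock level in scaled reads (95% interval 0.260 to 0.897) and ONECUT1 at 0.347 (0.204 to 0.568). CEBPA had a ratio of 0.677 (0.388 to 1.16). These were 2 of 3 factors whose interval left out 1, both lower, against 38.9% of the genes with 20 to 200 reads in the pair. FOXA1 had 17 reads with PSPC1 and reached 20 through mock, where it was higher, so its part in the count carries no weight. With PSPC1-Y523F, the intervals of FOXA1 (0.611, 0.343 to 1.06), CEBPA (1.03, 0.638 to 1.66) and ONECUT1 (0.695, 0.468 to 1.03) all held 1, so 0 of 3 left it out where 39.9% of genes did. The 3 factors thus showed no difference between PSPC1-Y523F and mock that this depth could resolve.

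With PSPC1/PTK6, FOXA3 was 11.8 times its mock level (2.95 to 103) and NR5A2 was 8.35 times (3.33 to 26.9). FOXA1, CEBPA and ONECUT1 had ratios of 1.10 (0.699 to 1.75), 1.03 (0.648 to 1.63) and 0.721 (0.495 to 1.05). These were 2 of 5 factors outside 1, against 53.0% of genes, but both reached 20 reads only through the PSPC1/PTK6 library, so the count and its direction carry no weight. In this library the genes of 1 to 5 FPKM had a median log2 fold change of 0.31 as deposited and −0.02 after quantile normalization, and with that step FOXA1 and CEBPA turned to log2 values of −0.25 and −0.27. FOXA3 and NR5A2 kept their sign, at 0.66 and 0.50 on the log2(FPKM + 1) scale.

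With PSPC1-Y523F/PTK6, FOXA3 was 15.6 times its mock level (4.01 to 134). FOXA1 was at 0.362 (0.185 to 0.676), CEBPA at 0.352 (0.180 to 0.656) and ONECUT1 at 0.341 (0.208 to 0.544). All 4 factors with at least 20 reads had intervals that left out 1, against 34.9% of genes, but FOXA3 reached 20 reads only through the library in which it was high. FOXA1 and CEBPA, with 15 reads each in this library, reached 20 through mock, in which they were higher. Only ONECUT1 had over 20 reads in both libraries, so the count of 4 carries no weight. NR5A2, with 9 reads against 5, had a ratio of 1.61 (0.484 to 6.10). The genes of 1 to 5 FPKM had a median log2 fold change of −0.10 as deposited in this comparison. FOXA3 rested on 2 reads in the shared mock library in every one of these ratios.

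**Figure D2:**
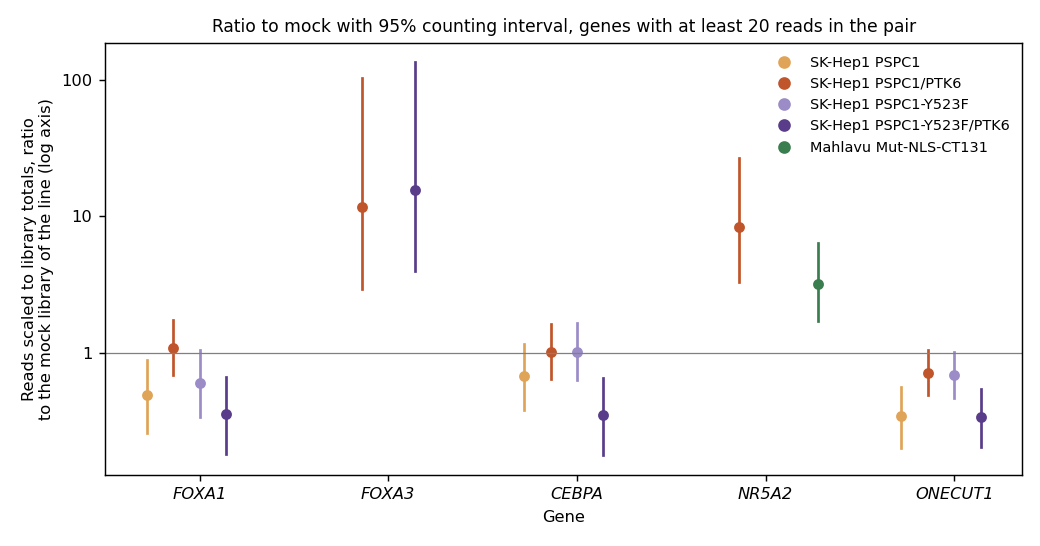
Ratio of reads, scaled to library totals, to the mock library of the same line (log axis) for the factors with at least 20 reads in the pair, with 95% counting intervals as bars. The intervals of FOXA3 lie above 1 in both SK-Hep1 libraries with PTK6, and those of NR5A2 with PSPC1/PTK6 and Mut-NLS-CT131. The intervals of FOXA1 and ONECUT1 lie below 1 with PSPC1 and with PSPC1-Y523F/PTK6, and that of CEBPA with PSPC1-Y523F/PTK6. All other intervals shown hold 1.

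The addition of PTK6 was also read within each form of PSPC1. From PSPC1 to PSPC1/PTK6, the ratio was 2.24 for FOXA1 (1.26 to 4.18), 2.08 for ONECUT1 (1.25 to 3.58) and 1.52 for CEBPA (0.900 to 2.61). From PSPC1-Y523F to PSPC1-Y523F/PTK6, the ratio was 0.592 for FOXA1 (0.286 to 1.19), 0.491 for ONECUT1 (0.291 to 0.811) and 0.343 for CEBPA (0.175 to 0.638). FOXA3 was higher with PTK6 in both, with ratios of 2.75 (1.21 to 7.03) and 7.60 (2.72 to 29.4). NR5A2 was also higher in both, with ratios of 39.0 (6.65 to 1572) and 7.82 (1.08 to 343), each against 1 read. In the Y523F pair it had 9 reads with PTK6, short of the 20 reads required above, so its ratio there carries no weight. FOXA3 in both pairs, and FOXA1 and NR5A2 in the wild-type pair, reached 20 reads only through the library with PTK6. FOXA1 and CEBPA in the Y523F pair, with 15 reads each with PTK6, reached it only through the other library. The share of all genes whose interval left out 1 was not computed for these pairs. PSPC1 itself also differed within each pair, at 7.01 FPKM without and 26.4 with PTK6 for the wild type, and 2.28 and 70.9 for Y523F, so neither pair differs by PTK6 alone. As deposited, the median log2 fold change of genes of 1 to 5 FPKM was 0.32 in the first pair and −0.05 in the second.

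In Mahlavu, no factor passed the filter in either comparison with mock, where 6.33% of 12415 genes were past 2-fold in the library labelled PSPC1-CT131 and 6.42% of 12425 in that labelled Mut-NLS-CT131. No factor reached 20 reads in the PSPC1-CT131 pair, so 0 of 0 could be set against the 46.5% of genes of 20 to 200 reads whose interval left out 1. In the Mut-NLS-CT131 pair this was 1 of 1, NR5A2, with a ratio of 3.23 (1.71 to 6.45), against 43.5% of genes, and it reached 20 reads only through the library in which it was high. The NR5A2 ratio in the PSPC1-CT131 library was 0.327 (0.0784 to 1.04). Genes of 1 to 5 FPKM had median log2 fold changes of −0.41 and −0.19 as deposited in these comparisons.

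A list of 35 other factors of the liver network was read in the same libraries. At least 1 FPKM was reached by 33 of them in Huh-7, 19 to 21 in SK-Hep1 and 21 to 26 in Mahlavu. Against SK-Hep1 mock, 23 of the 33 that passed the filter were at least 2-fold higher in untreated Huh-7 and 5 were lower, with a median log2 difference of 2.47 beside −0.05 over all genes, of which 24.9% were higher and 25.9% lower. Against Mahlavu mock, 23 of 33 were higher and 6 lower, with a median of 1.90 beside 0.00 and shares of 22.6% and 23.7% over all genes. Only 19 of the 35 reached 1 FPKM in SK-Hep1 mock, so a part of the 33 passed the filter by their Huh-7 level and these counts are a description only. The most abundant in untreated Huh-7 were XBP1, a factor of the secretory pathway, with 427 FPKM, HHEX, an early liver bud factor, with 142, RXRA, the partner of many nuclear receptors, with 71.2, and GATA4 with 67.3. These 4 were present in SK-Hep1 mock too, at 55.8, 7.01, 25.0 and 22.0 FPKM, and in Mahlavu mock at 56.9, 30.6, 63.8 and 21.9 FPKM. PROX1, a factor of liver development named after its values were seen, had 28.4 FPKM in untreated Huh-7 and 0 in the SK-Hep1 and Mahlavu mock libraries.

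Unlike CEBPA, the related genes CEBPB and CEBPD, which respond to acute-phase signals, were well expressed in all 3 lines. CEBPB had 102 FPKM in SK-Hep1 mock, 100 in Mahlavu mock and 30.0 in untreated Huh-7, and CEBPD had 16.0, 85.6 and 22.0. CEBPB was past 2-fold higher with PSPC1/PTK6, at 224 FPKM (log2 1.14). CEBPD was past 2-fold higher with PSPC1 at 77.6 FPKM (2.17), with PSPC1/PTK6 at 52.2 (1.52) and with PSPC1-Y523F/PTK6 at 35.4 (1.15). DBP, a circadian factor, had 11.6 FPKM in mock, 35.4 with PSPC1 (1.49) and 34.2 with PSPC1/PTK6 (1.30). NR1H3 (LXR alpha), a sterol receptor, had 7.97 FPKM in mock, 17.2 with PSPC1 (1.02) and 17.7 with PSPC1-Y523F/PTK6 (1.12). Its level with PSPC1/PTK6 was similar, at 17.6 FPKM, but was not past 2-fold after quantile normalization (0.79).

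TBX3, a repressor active in liver development, was the only network factor past 2-fold lower in an SK-Hep1 library. It had 42.4 FPKM in mock, 16.6 with PSPC1 (log2 −1.20), 11.1 with PSPC1/PTK6 (−2.00) and 14.7 with PSPC1-Y523F/PTK6 (−1.29). With PSPC1, 3 of 20 network factors that passed the filter were higher and 1 lower, beside 3.38% and 2.19% of all genes. With PSPC1/PTK6 it was 3 and 1 of 20, beside 5.09% and 3.32%. With PSPC1-Y523F/PTK6 it was 2 and 1 of 20, beside 3.44% and 1.59%. In PSPC1-Y523F, 0 of the 20 network factors that passed the filter were past 2-fold, beside 5.29% of all genes. In the library labelled PSPC1-CT131 it was 0 of 21, beside 6.33%. In the library labelled Mut-NLS-CT131, DBP was higher (52.0 FPKM against 26.6, log2 1.09), and the orphan receptors NR2F1 (5.24 against 13.8, −1.14) and NR2F2 (18.7 against 47.2, −1.33) and the stress factor ATF5 (14.5 against 31.5, −1.07) were lower. These were 1 higher and 3 lower of 24 that passed the filter, beside 3.16% and 3.26% of all genes. With HGF, 0 of 33 factors were past 2-fold, beside 0.820% of all genes.

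Of 36 known target genes of the network, 26 to 27 reached 1 FPKM in Huh-7, 3 to 4 in SK-Hep1 and 2 to 3 in Mahlavu. The summed level was 40584 to 41192 FPKM in Huh-7, at most 52.1 in SK-Hep1 and 14.6 to 19.9 in Mahlavu. Against SK-Hep1 mock, 24 of 25 that passed the filter were higher in Huh-7 and 1, IGFBP1, was lower, with a median log2 difference of 8.31, beside 24.9% higher, 25.9% lower and a median of −0.05 over all genes. Against Mahlavu mock, 24 of 24 were higher, with a median of 8.82, beside 22.6% and a median of 0.00. Most of these genes passed the filter by their Huh-7 level, so the counts had to come out high. The most abundant were the plasma proteins AFP with 14881 FPKM, ALB with 5948, APOA2 with 4444 and AMBP with 3437 in untreated Huh-7. IGFBP1, a liver growth factor binding protein, had 2.34 FPKM in SK-Hep1 mock and 0.357 in untreated Huh-7. It had 6.23 FPKM with PSPC1-Y523F/PTK6 (log2 1.20), 1 of 4 targets that passed the filter in that comparison, beside 5.03% of all genes. With PSPC1, PSPC1/PTK6 and PSPC1-Y523F, 0 of 4 were past 2-fold, beside 5.57%, 8.41% and 5.29% of all genes. In Mahlavu it was 0 of 3 with PSPC1-CT131 and 0 of 2 with Mut-NLS-CT131, beside 6.33% and 6.42%. For HGF it was 0 of 27, beside 0.820%. These counts of 0 are near those shares.

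The bile acid genes among the targets, named after their values were seen, were not uniform in Huh-7. Of genes known to respond to NR1H4, NR0B2 (SHP, counted among the network factors) was at 14.1 and 10.4 FPKM without and with HGF, the transporter subunits SLC51A at 12.4 and 13.9 and SLC51B at 21.2 and 19.9, and FGF19 at 21.3 and 17.7. ABCB11, the bile salt export pump and another gene known to respond to NR1H4, had 0.942 and 1.25 FPKM. SLC51A was also at 1.71 and 1.58 FPKM in SK-Hep1 and Mahlavu mock, where NR1H4 had 0 reads. CYP7A1, the rate-limiting enzyme of bile acid synthesis and a known target of NR5A2 and HNF4A, had 0 FPKM in both Huh-7 libraries, and the gluconeogenic enzymes PCK1 and G6PC1 had at most 0.300 and 0.454 FPKM. The bile acid genes CYP8B1 and SLC10A1 were also near 0, at 0 and 0.209 FPKM without HGF and 0.156 and 0.0640 with it. Target genes in Huh-7 therefore ranged from 0 to 14881 FPKM.

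**Figure D3:**
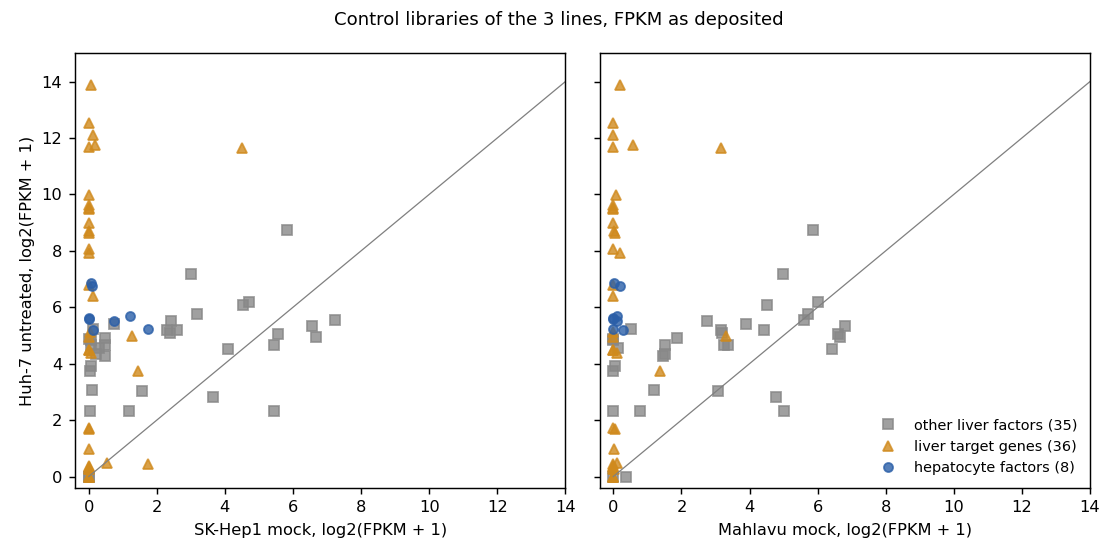
Log2(FPKM + 1) in untreated Huh-7 against SK-Hep1 mock (left) and Mahlavu mock (right) for the 8 hepatocyte factors, 35 other liver factors and 36 liver target genes, with the line of equal level. The hepatocyte factors and most target genes lie near the left edge, and the other liver factors are spread on both sides of the line, 23 of 33 past 2-fold higher in Huh-7 in either panel after quantile normalization.

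The genes whose log2(FPKM + 1) was most like each factor over the 10 libraries were found by Pearson's r, which here mostly records that 2 libraries were high and 8 low. For HNF4A they were PDX1, PROX1 and HGD, and 509 of 13857 genes had r above 0.99 with it. FGB and F5 were among the 3 nearest genes of both FOXA2 and NR1H4, and the remaining gene was NR1H4 for FOXA2 and HMGN2P15 for NR1H4. For FOXA3 they were FRK, NES and COL26A1, for CEBPA FIGNL2, ALDOC and FGFR3, and for NR5A2 PIK3AP1, LAMA4 and BMP2. FOXA1 was nearest to CEBPA with r = 0.9960, then to SLCO1A2 and AP001107.9. ONECUT1 was nearest to RHOU with r = 0.9924, then to FOXA1 with 0.9914 and UNC13B with 0.9904, and only these 3 genes were above 0.99. Over the 8 SK-Hep1 and Mahlavu libraries, which also fall into 2 lines, FOXA1 was most like AC005829.2 (0.9855), GALNT14 (0.9845) and SLC22A17 (0.9815). FOXA3 was most like SLC44A3 (0.9650), SENCR (0.9542) and PLA2G16 (0.9393), and ONECUT1 was most like ANKRD55 (0.9843), AC005831.1 (0.9826) and RNPS1 (0.9808).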

How the data were processed

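RNA-Seq libraries of SK-Hep1 (5), Mahlavu (3) and Huh-7 (2) were used, grouped by their labels, with 1 library for each condition. For SK-Hep1 and Mahlavu the authors deposited raw read counts per gene and FPKM, and for Huh-7 they deposited FPKM only. The submitters' processing notes name TopHat2 2.0, HTSeq 0.6.1, edgeR and GRCh38.p12, with no role given, while the study's methods name alignment to an older build, rRNA depletion and quantile normalization. The labels describe poly-A selection instead, and the gene positions equal those of GENCODE 29 (GRCh38) for 97.5% of 58039 genes, which also gave the symbols. The deposited FPKM were not quantile normalized. They follow from the counts, the library total and 1 length per gene, which was within 1 base of the mean transcript length for 93.8% of 30118 genes. FPKM rather than counts were used for the folds, since the Huh-7 tables hold no counts.

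Huh-7 reads were recovered as whole numbers (within 0.01 of a read) for 100% of the values with a known length. For NR1H4, with 0 reads elsewhere, a length of 1394 bases was recovered. A length of 2788 would also give whole reads, so its read numbers in Huh-7 are the lower of 2 possible sets. Counts were between 15245935 and 24278662 reads per library, and 3 reads were taken as the floor.

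FPKM were quantile normalized over the SK-Hep1 and Mahlavu libraries, over both Huh-7 libraries, or over all 10 for comparisons between lines. Log2 fold changes used FPKM + 1, genes whose mean over the pair was 1 FPKM or more were kept, and 2-fold was the threshold. Poisson intervals (95%) and exact conditional binomial intervals of ratios of reads, scaled to library totals, were computed with scipy 1.17.1 in Python 3.11.15 (numpy 2.4.6, pandas 2.3.3, matplotlib 3.10.9). No condition could be tested and no p-value is given. The calculations were tested on simulated data. Alternatives were 0.1 or 5 as pseudocount, no quantile normalization, other sets of libraries for normalization, TMM factors from edgeR 4.0.16 in R 4.3.3, no filter, a mean of at least 5 FPKM, and thresholds of 0.5 or 2 FPKM.

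The factors and the gene lists were chosen with earlier results of these data known. The genes named are the 8 factors, the 4 network factors and 4 targets with the highest FPKM in untreated Huh-7, those past 2-fold against their own control, the 3 neighbours, and for each factor the 3 genes with the highest Pearson r. PROX1, the bile acid genes, PCK1, G6PC1 and the markers described singly were named after their values were seen. Promoter sequences are from RefSeq (GRCh38.p14), and protein sequences were not used here.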

Additional observations from a re-analysis of the deposited data

Results flagged for a closer look

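For 3 factors the addition of PTK6 went with opposite directions in the 2 forms of PSPC1. FOXA1 reads, scaled to library totals, were higher with PTK6 on wild-type PSPC1 and lower with it on PSPC1-Y523F, and the log2 ratios differed by 1.92. For CEBPA the difference was 2.14 and for ONECUT1 it was 2.09, in the same sense. Each direction rests on 1 library with and 1 without PTK6, and the difference was not tested. How many of all genes took opposite directions in these 2 pairs was not counted, so whether 3 factors is unusual is unknown. Of the 3, only ONECUT1 had more than 20 reads in each of these libraries. PSPC1 was also higher in the library with PTK6 in each pair, at 26.4 against 7.01 FPKM and 70.9 against 2.28 FPKM, and its part in the difference was not tested. With PSPC1 the ratio of CEBPA had an interval that held 1 (0.900 to 2.61), as had that of FOXA1 with PSPC1-Y523F (0.286 to 1.19). After quantile normalization the log2 fold changes of FPKM + 1 with wild-type PSPC1 were 0.32 for FOXA1, 0.30 for ONECUT1 and 0.02 for CEBPA, and with PSPC1-Y523F they were −0.29, −0.55 and −0.49.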

How the results depend on the processing

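With 0.1 added in place of 1, the number of factors past 2-fold against mock went from 0 to 1 with PSPC1 and to 2 with PSPC1-Y523F/PTK6, and the latter was 1 without the filter or with all 10 libraries normalized together. Of 48 such counts, 44 stayed within 1.5 times. Outside Huh-7, factors at 2.36 FPKM or lower could hardly be called with 5 added or a mean of at least 5 FPKM. Those counts therefore say nothing about stability. Between Mahlavu and SK-Hep1 mock, the 2 factors became 1 with FPKM as deposited or TMM, and 0 with 5 added or a mean of at least 5 FPKM. The other 15 of 19 counts between lines stayed within 1.5 times, and the 2 were 3 without the filter. At 0.5 FPKM, the factors counted as expressed were 3 in SK-Hep1 mock, 2 with PSPC1 and 5 with PSPC1/PTK6. They were 3 with the Y523F mutant, 2 with the mutant and PTK6, and 1 in the Mut-NLS-CT131 library. At 2 FPKM they were 1 in SK-Hep1 mock and 0 in PSPC1/PTK6 and in both Y523F libraries. With quantile-normalized FPKM they were 3 in SK-Hep1 mock, 2 with PSPC1 and 2 with PSPC1/PTK6. The Y523F mutant then had 3, and the mutant with PTK6 had 2. With the longest transcript as length, an alternative chosen after seeing the data, untreated Huh-7 levels were 45.2 FPKM for HNF4A, 22.7 for FOXA1, 67.5 for FOXA3, 23.1 for NR1H4, 19.4 for NR5A2 and 23.4 for ONECUT1. The cause of these shifts was not tested beyond the construction of each alternative. TMM was not run for Huh-7, which has no deposited counts. No paired analysis was possible because each condition had 1 library, and no replicate could be left out. Depth limits the SK-Hep1 and Mahlavu values, where the 8 factors together had 8 to 219 reads.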

Other observations

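From the marker lists, 2 genes that differed between SK-Hep1 and Mahlavu are described here, chosen after their values were seen. They were not the only ones between the mock libraries. KRT7, SOX9, EGFL7, COL1A1, PDGFRB and CD14 were also past 2-fold lower in Mahlavu, and COL1A2 was past 2-fold higher. Over all genes, 16.1% were lower and 16.4% higher. KRT19, a biliary keratin, had 305 FPKM in SK-Hep1 mock, 639 with PSPC1, 429 with PSPC1/PTK6, 646 with PSPC1-Y523F and 1210 with PSPC1-Y523F/PTK6, but at most 1.22 FPKM in the Mahlavu libraries, and 219 and 261 FPKM in Huh-7. SERPINA1, the alpha-1 antitrypsin gene, was the one plasma protein gene of the hepatocyte markers with reads well above the floor in SK-Hep1, at 16.3 to 42.3 FPKM, and it had 7.97 to 10.2 FPKM in Mahlavu and 3196 and 3369 FPKM in Huh-7.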
